A study of Mus musculus with 2 samples.

Results

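Pf4-high megakaryocyte-like cells are described here, in cultured mouse hematopoietic stem cells (HSC) whose transcripts were counted cell by cell in droplets, from their 3′ ends. A cell belonged to the class when Pf4, the gene of the platelet chemokine platelet factor 4, held at least 1% of its UMIs (unique molecular identifiers, which tag captured transcripts). By this rule 728 of 9932 kept cells were Pf4-high: 264 of 3798 in RO-3066 and 464 of 6134 in DMSO. The cells were chosen by their measured Pf4 share, so Pf4 and every gene that differs between these cells and the others are given as a description and nothing was tested.

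The study cultured HSC in suspension for 48 h with RO-3066 or with its vehicle, dimethyl sulfoxide (DMSO), under a title that asks whether DNA damage primes these cells for megakaryopoiesis. The labels give blood as the tissue and state no strain, age, sex, dose or target of the compound. There was 1 library of each treatment, so no difference has a replicate check, and cells of a library are not replicates of a treatment. Intervals are 95% exact Poisson or Clopper-Pearson intervals, which cover counting error only. The files held 3882 RO-3066 barcodes with 171821236 UMIs and 6160 DMSO barcodes with 188022321 UMIs, of which 84 and 26 were left out for under 1000 UMIs, under 500 genes or over 10% mitochondrial UMIs. The libraries had 7 barcode sequences in common. Kept cells had a median of 35175 UMIs in RO-3066 and 24352 in DMSO.

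Megakaryocytes are the marrow cells that shed platelets. They arise from stem cells directly or through progenitors. As they mature they repeat DNA synthesis without finishing cell division (endomitosis), enlarge, fill granules with chemokines and clotting proteins, and place adhesion receptors on their surface. The 6 genes set as markers of the class encode 2 chemokines of platelet alpha granules (Pf4 and Ppbp), the podoplanin receptor CLEC-2 (Clec1b), the integrin chain alpha IIb (Itga2b), a receptor of the alpha granule membrane (Treml1) and the thrombin inhibitor protease nexin-1 (Serpine2).

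Pf4 lies on mouse chromosome 5 at 90772435 to 90773383 (mm10, plus strand). Ppbp lies at 90768518 to 90770063 on the same strand, 2372 bases before it. Clec1b lies on chromosome 6 at 129397297 to 129409335, also on the plus strand. The 250 bases before the start of these 3 genes are shown because Pf4 defines the class and Ppbp and Clec1b had the largest ratios among its other markers. They are RefSeq promoters of GRCm38.p6, the assembly behind mm10, printed 5′ to 3′ on the gene's strand, at chr5:90772185-90772434, chr5:90768268-90768517 and chr6:129397047-129397296. Capitals mark a match to AGGAAG or its reverse complement CTTCCT, a form of the sequence bound by ETS factors such as Fli1.
Pf4: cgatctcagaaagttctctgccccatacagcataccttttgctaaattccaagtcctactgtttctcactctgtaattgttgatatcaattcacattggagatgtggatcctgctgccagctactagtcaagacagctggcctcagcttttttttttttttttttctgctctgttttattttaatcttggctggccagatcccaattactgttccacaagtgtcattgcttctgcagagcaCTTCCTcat
Ppbp: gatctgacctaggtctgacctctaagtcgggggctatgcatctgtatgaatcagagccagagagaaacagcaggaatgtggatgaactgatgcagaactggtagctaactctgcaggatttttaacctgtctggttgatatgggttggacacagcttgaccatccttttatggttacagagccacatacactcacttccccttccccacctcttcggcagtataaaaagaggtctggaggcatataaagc
Clec1b: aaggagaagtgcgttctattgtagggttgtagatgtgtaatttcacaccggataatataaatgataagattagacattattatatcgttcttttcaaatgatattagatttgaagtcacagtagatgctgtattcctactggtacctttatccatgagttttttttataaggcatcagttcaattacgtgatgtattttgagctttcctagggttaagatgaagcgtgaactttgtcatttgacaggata
The Pf4 window held 1 ETS match, next to the start. Of the windows of the 6 marker genes, those of Pf4, Itga2b (2 matches) and Serpine2 (1 match) held this motif, which is in 29.5% of 32851 mouse promoters of that length. The GATA motif AGATAA (9.99% of promoters) and the RUNX motif TGTGGT (14.0%), both searched on both strands, had no match in the 6 windows, and no matches overlapped. A match to these letters is a description of sequence, not a bound site. Other forms of the ETS, GATA and RUNX sequences were not searched, so a window without a match can still hold one.

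Pf4-high cells were the upper end of a continuous range. Their median Pf4 share was 1.47% in RO-3066 and 1.53% in DMSO, with highest values of 6.15% and 5.83%, against a median over the other kept cells of 0.0298% in RO-3066 and 0.0486% in DMSO. Just inside the limit, at 1 to 1.1%, lay 37 RO-3066 and 46 DMSO cells, and just outside it, at 0.9 to 1%, lay 46 RO-3066 and 74 DMSO cells. A further 257 RO-3066 and 505 DMSO cells held 0.5 to 1%, while 134 RO-3066 and 117 DMSO cells had no Pf4 UMI at median depths of 14428 and 16348 UMIs. Pf4-high cells were 6.95% of kept cells in RO-3066 (6.16 to 7.81) and 7.56% in DMSO (6.91 to 8.25), so the pooled shares overlapped within counting error. They held 58.4% of the Pf4 UMIs of the RO-3066 library and 67.4% of those of the DMSO library.

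**Figure D1:**
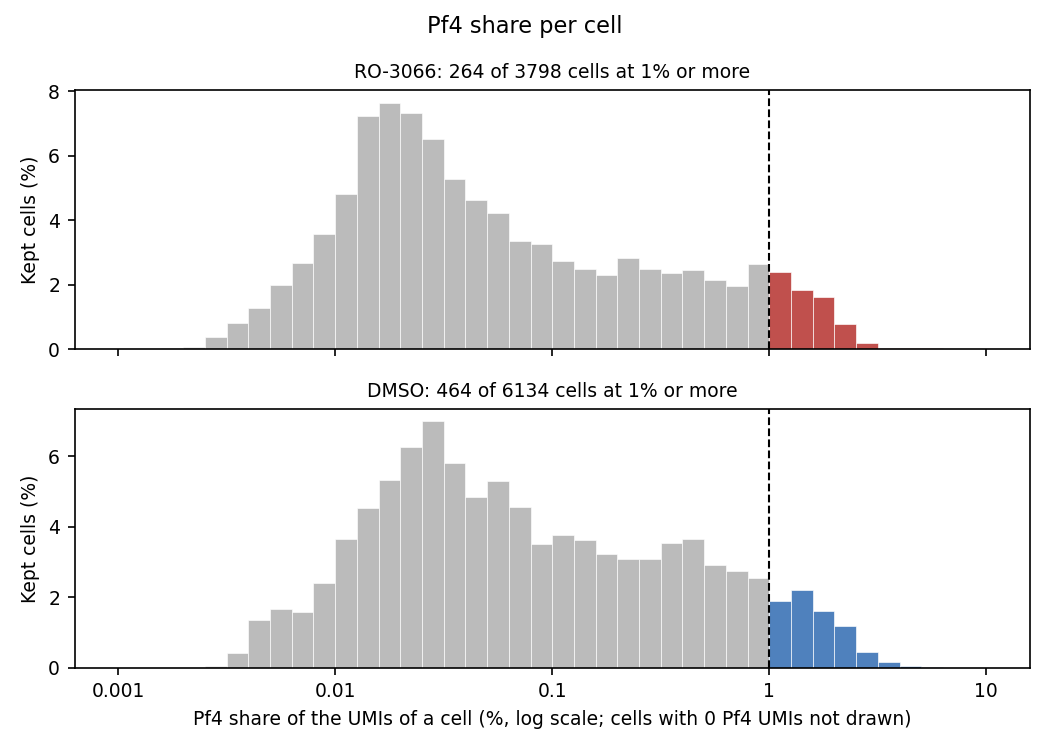
Share of kept cells (%) by the Pf4 share of a cell's UMIs (%, log scale), RO-3066 above DMSO; the dashed line is the limit of 1% and coloured bars are the 264 RO-3066 and 464 DMSO cells at or over it. Cells with 0 Pf4 UMIs are not drawn. Both libraries run across the limit with no gap.

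Pf4-high cells were deep. Their median was 90608.5 UMIs in RO-3066 and 61239.5 in DMSO, against 33529.5 and 23662.5 UMIs in the other cells of RO-3066 and of DMSO. Genes detected per cell had medians of 7881 in RO-3066 and 6710 in DMSO Pf4-high cells, against 5627.5 and 4745 in the other cells of each library. After every cell was thinned to 10000 UMIs the medians were 3034 and 3042 genes in Pf4-high cells of RO-3066 and DMSO, against 3079 and 3050 in the others; the gap in genes was not seen at equal depth. More RNA per cell and more efficient capture cannot be told apart here. Likely doublets, scored against simulated pairs of cells, made up 6 of 264 Pf4-high cells in RO-3066 (2.27%) and 14 of 464 in DMSO (3.02%). Over all kept cells they were 115 of 3798 (3.03%) and 301 of 6134 (4.91%). The number called per library was set in advance from its number of cells, so these counts do not measure how many doublets there were.

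Within most ranges of depth a smaller share of cells was Pf4-high in RO-3066 than in DMSO. Depth itself differed between the libraries and varies inside each range, so these shares compare 2 libraries and their intervals cover cells only. Among cells of 40000 to 60000 UMIs the class held 1.92% of cells in RO-3066 (1.05 to 3.20) and 18.96% in DMSO (15.4 to 22.9). At 60000 to 80000 UMIs it held 15.2% in RO-3066 (11.8 to 19.0) and 38.3% in DMSO (30.2 to 46.9). The same order held at 20000 to 40000 UMIs, with 0.870% in RO-3066 and 3.56% in DMSO, at 80000 to 120000 UMIs, with 25.6% and 60.3%, and at 120000 UMIs or more, with 53.4% and 80.2%. Below 20000 UMIs the shares were 1.16% in RO-3066 and 1.1% in DMSO. More RO-3066 cells were deep: 23.3% of RO-3066 cells and 6.57% of DMSO cells had 60000 UMIs or more.

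**Figure D2:**
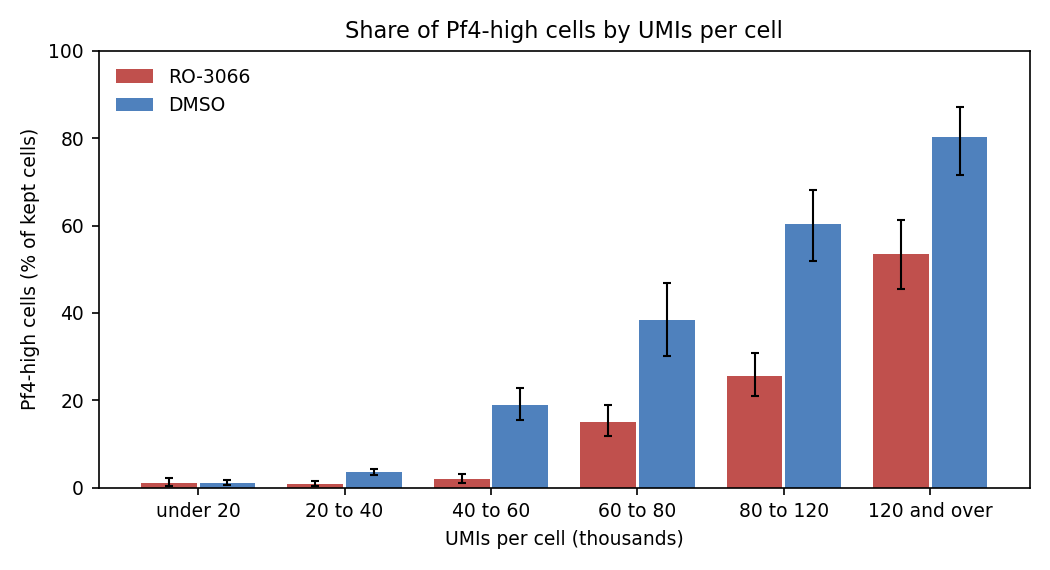
Pf4-high cells as a share of kept cells (%) in 6 ranges of UMIs per cell, RO-3066 left of DMSO; bars carry exact 95% binomial intervals of counting error. From 20000 UMIs upward the RO-3066 share lies below the DMSO share in each range.

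The markers set for the class were high in it in both libraries. Summed over cells and scaled to counts per 1000000 UMIs (CPM), Ppbp stood at 192 CPM in RO-3066 Pf4-high cells against 8.0 CPM in the other RO-3066 cells, 24.1-fold higher (22.6 to 25.7). In DMSO it stood at 91.2 CPM against 2.79 CPM, 32.7-fold higher (29.6 to 36.3). A Ppbp UMI was found in 90.5% of RO-3066 and 63.8% of DMSO Pf4-high cells, against 13.7% and 5.57% of the other cells and 6.87% and 3.01% of cells with a Pf4 share under 0.1%. With every cell thinned to 10000 UMIs these shares were 54.4% of RO-3066 and 31.4% of DMSO Pf4-high cells, against 2.45% and 1.35% of cells under 0.1% Pf4. Clec1b was 14.9-fold higher in RO-3066 (34.3 against 2.30 CPM) and 19.2-fold higher in DMSO (40.5 against 2.11 CPM). Itga2b, which stem cells of the mouse also transcribe, differed least among the 6, at 2.55-fold in RO-3066 (568 against 223 CPM) and 3.69-fold in DMSO (431 against 117 CPM).

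The label was checked against further markers. Of 17 further megakaryocyte markers, 14 reached 5 CPM in Pf4-high cells and 11 in the other cells of each library. The 3 that did not were Tubb1, the beta tubulin of platelets, with 1 UMI over all Pf4-high cells of each library, the ADP receptor gene P2ry12, with 2 UMIs in RO-3066 and 0 in DMSO, and the collagen receptor gene Gp6, with 1 and 3 UMIs. These are genes of late megakaryocytes and platelets. Stem cell markers were lower but not all absent: their 9 genes summed to 162 CPM in RO-3066 and 123 CPM in DMSO Pf4-high cells, against 294 and 282 CPM in the other cells.

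Across all genes with at least 20 CPM in either group, 212 of 5884 (3.6%) were 2-fold or more higher and 143 (2.43%) as much lower in Pf4-high than in other cells of RO-3066. In DMSO 221 of 5785 (3.82%) were higher and 175 (3.03%) lower. The libraries had 147 of the higher and 89 of the lower genes in common, which is 69.3% and 62.2% of the RO-3066 lists and 66.5% and 50.9% of the DMSO lists, and no gene was on opposite sides. Depth differs between the groups compared, and among cells of 50000 to 120000 UMIs, a window chosen after the data had been seen, 119 genes were higher and 59 lower in RO-3066 and 44 and 48 in DMSO.

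Granule cargo and clotting genes were mostly higher in the class. Of 35 genes on this list 31 in RO-3066 and 29 in DMSO reached 5 CPM in either group, and of these 17 and 16 were at least 2-fold higher and none 2-fold lower, with median log2 ratios of 1.28 and 1.58 against -0.09 and -0.02 over all genes of that level, of which 3.91% and 3.98% were 2-fold higher and 3.85% and 4.73% 2-fold lower. A gene low outside the class passes such a limit mainly when it is high inside it, so these counts describe the list and lend it no support. Vwf, the adhesive protein that bridges platelets to injured vessels, had 188 CPM in Pf4-high against 42.0 CPM in other RO-3066 cells and 140 against 19.0 CPM in DMSO cells. The metalloproteinase inhibitor gene Timp3 had 314 against 42.5 CPM in RO-3066 and 300 against 33.6 CPM in DMSO. Rab27b, a GTPase of granule transport, had 356 against 85.8 CPM in RO-3066 and 265 against 48.0 CPM in DMSO. Clu and Plek, which encode the chaperone clusterin and the kinase C substrate pleckstrin, were also over 3-fold higher in both libraries. Below 0 in both libraries were Angpt1, a growth factor of the vessel wall and of stem cells, with log2 ratios of -0.76 in RO-3066 and -0.66 in DMSO, the vesicle fusion gene Vamp8, with -0.43 and -0.27, the granule proteoglycan gene Srgn, with -0.23 and -0.43, and Vipas39, a gene of granule sorting, with -0.09 and -0.09.

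Surface receptor genes were higher too. Of 37 genes 33 in RO-3066 and 31 in DMSO reached 5 CPM. At least 2-fold higher were 18 and 22 of them, against 3.91% and 3.98% of all genes of that level. None was 2-fold lower, against 3.85% and 4.73%, and the medians were 1.15 and 1.77. The level required bears on these counts, and on those of the other megakaryocyte lists, as it does for the cargo genes. The von Willebrand factor receptor was represented by Gp1bb, at 67.0 against 12.8 CPM in RO-3066 and 61.2 against 6.93 CPM in DMSO, by Gp5, at 119 against 36.3 CPM and 75.7 against 16.8 CPM, and by Gp9, at 118 against 61.2 CPM and 113 against 32.4 CPM. Itgb3, the partner chain of Itga2b in the fibrinogen receptor, stood at 194 against 42.2 CPM in RO-3066 and 180 against 21.8 CPM in DMSO. F2rl2, the thrombin receptor PAR3 of mouse platelets, stood at 56.0 against 12.6 CPM and 67.3 against 7.06 CPM. Selp, the gene of P-selectin, had 109 against 36.5 CPM in RO-3066 and 107 against 15.8 CPM in DMSO.

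Genes of platelet signalling had medians of 0.75 in RO-3066 and 1.08 in DMSO. At least 2-fold higher were 11 of 33 and 18 of 32, against 3.91% and 3.98% of all genes. At least 2-fold lower were 0 in RO-3066 and 2 in DMSO, against 3.85% and 4.73%, with lowest log2 ratios of -0.97 and -1.30. Gnaz, the G protein alpha subunit that couples to the adrenaline receptor of platelets, had 89.2 against 15.4 CPM in RO-3066 and 59.4 against 5.86 CPM in DMSO. Rgs10, a brake on G proteins, had 182 against 39.2 CPM and 112 against 17.2 CPM. Both chains of the nitric oxide receptor were higher, Gucy1a1 with log2 ratios of 1.29 in RO-3066 and 1.71 in DMSO and Gucy1b1 with 1.63 and 2.05, as was Pde5a, the phosphodiesterase that removes their product cyclic GMP, with 1.81 and 2.11. Mrvi1 encodes a substrate of the kinase that cyclic GMP switches on. It had 70.7 against 7.47 CPM in RO-3066 and 118 against 7.52 CPM in DMSO. Of the genes ranked, which had at least 50 CPM in either group of each library, it was among the 12 highest. Plcb2, a phospholipase of receptor signalling, was lower, with -0.97 and -1.19.

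Transcription factor genes had smaller ratios than the cargo genes. Their medians were 0.25 in RO-3066 and 0.51 in DMSO over 21 genes. At least 2-fold higher were 2 and 5 of these, against 3.91% and 3.98% of all genes. At least 2-fold lower were 3 and 2, against 3.85% and 4.73%. Gata1, the factor that drives the erythroid and megakaryocyte program, had 61.5 against 28.1 CPM in RO-3066 and 52.0 against 16 CPM in DMSO, and Mef2c had 834 against 391 CPM and 754 against 295 CPM. Fli1, an ETS factor of the lineage, had 143 against 110 CPM in RO-3066 and 202 against 100 CPM in DMSO, and Runx1 had log2 ratios of 0.22 and 0.72. Nfe2, needed for platelet release, was near level, with log2 ratios of 0.25 in RO-3066 and 0.10 in DMSO. Lower were Myb, which restrains megakaryocyte formation in mice, at 48.1 against 199 CPM and 48.3 against 182 CPM, and Erg, at 12.4 against 39.7 CPM and 10.7 against 37.1 CPM.

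Cytoskeletal genes of maturation had medians of 0.56 in RO-3066 and 0.64 in DMSO over 30 genes. At least 2-fold higher were 9 and 10 of these, against 3.91% and 3.98% of all genes. None was 2-fold lower, against 3.85% and 4.73%. Tpm4, a tropomyosin of platelet formation, had 181 against 38.6 CPM in RO-3066 and 219 against 32.2 CPM in DMSO. Tmsb4x, which encodes the actin-binding peptide thymosin beta 4, had 10216 against 4022 CPM in RO-3066 and 11143 against 3826 CPM in DMSO. Zyx and Vcl, of actin adhesion sites, had log2 ratios of 1.20 and 1.08 in RO-3066 and 1.31 and 1.36 in DMSO. Over all 5 megakaryocyte lists without Pf4, the median share of a cell's UMIs was 3.81% in RO-3066 and 3.39% in DMSO Pf4-high cells, against 1.83% and 1.67% in the others.

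**Figure D3:**
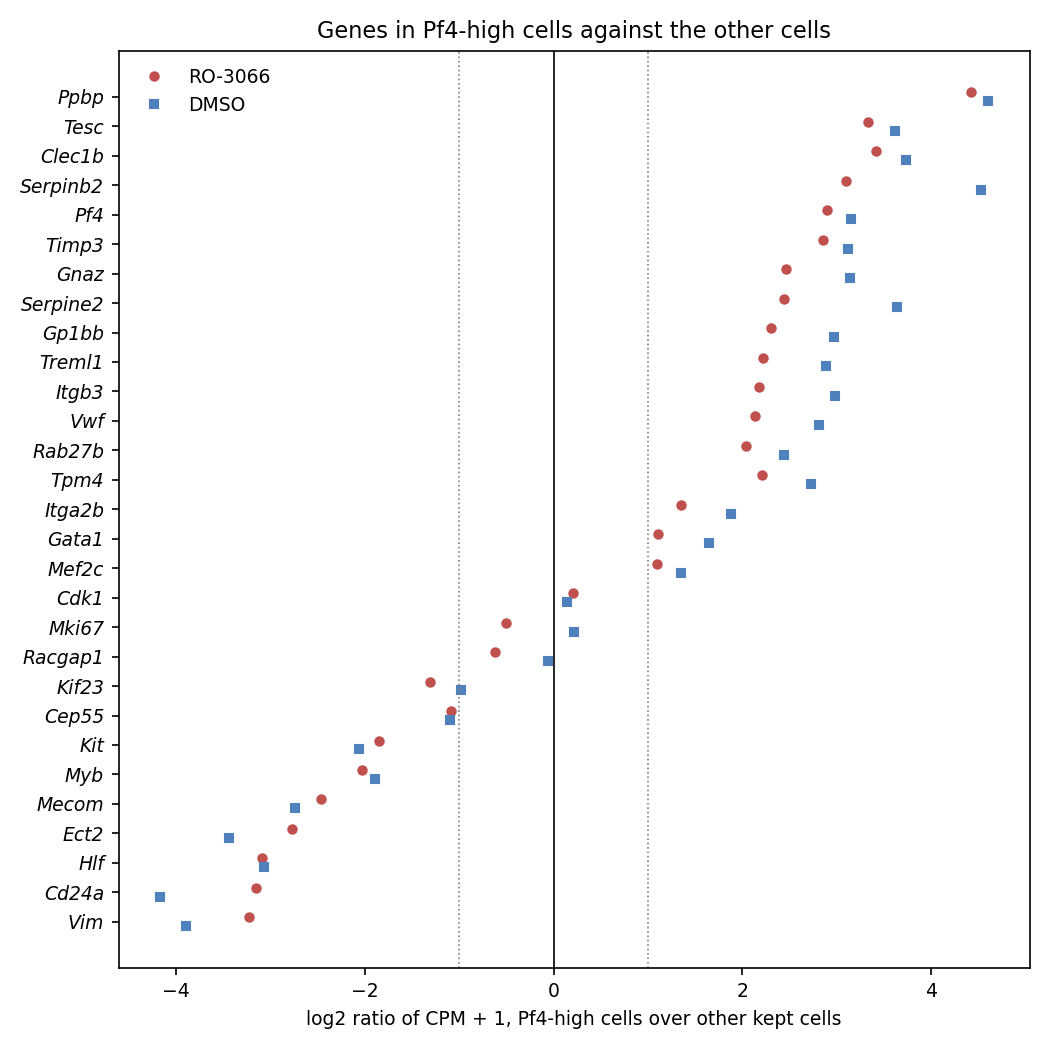
Log2 ratio of summed CPM plus 1, Pf4-high over other kept cells, for 29 genes named in the text, circles for RO-3066 and squares for DMSO. Dotted lines mark 2-fold. Ppbp is highest in DMSO (4.61), Cd24a and Vim lowest (-4.17 and -3.89), and Ect2 lies at -2.77 in RO-3066 and -3.44 in DMSO.

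Genes with at least 50 CPM in either group of each library were ranked by the smaller of their ratios in the 2 libraries. Unnamed gene models, mitochondrial genes and ribosomal protein genes were left out, as were genes of opposite sign in the libraries. Outside the lists, the 12 highest included Tesc, a calcium-binding protein linked to megakaryocyte differentiation in human cell lines (182 against 17.2 CPM in RO-3066, 56.8 against 3.71 CPM in DMSO), Serpinb2, a plasminogen activator inhibitor (114 against 12.4 CPM and 100 against 3.38 CPM), and Lilrb4a, an inhibitory receptor (125 against 21.3 CPM and 95.3 against 10.2 CPM). The 12 lowest held several stem cell genes. Hlf, a factor that maintains stem cells, had 9.05 against 84.2 CPM in RO-3066 and 8.0 against 74.2 CPM in DMSO. Mecom, a second such factor, had 13.2 against 77.6 CPM and 11 against 79.0 CPM, and Kit, the stem cell factor receptor, had 31.1 against 114 CPM and 18.8 against 81.3 CPM. Vim, the intermediate filament vimentin, had 13.5 against 135 CPM in RO-3066 and 15.4 against 242 CPM in DMSO, and Cd24a had 6.47 against 65.6 CPM and 3.8 against 85.4 CPM. The others were Sox4, Myl10, Lcp1, Bcl11a, Sept1, Dipk1b and Myb. On the stem cell list 13 of 28 genes in RO-3066 and 16 of 28 in DMSO were at least 2-fold lower, against 3.85% and 4.73% of all genes. At least 2-fold higher were 1 and 2, against 3.91% and 3.98%, and the medians were -0.92 and -1.64. A gene low in the class passes the level of 5 CPM mainly when it is high outside it, so these counts describe the list only. Stem cell genes that were not lower included Pdzk1ip1, with 175 against 92.7 CPM in RO-3066 and 61.7 against 35.1 CPM in DMSO, and Slamf1, with log2 ratios of 0.42 and 0.13.

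A gene of cell division stood apart from its list. Ect2 lies on chromosome 3 at 27097222 to 27153878 and encodes the exchange factor that switches on RhoA at the cleavage furrow, a protein known to be low in mouse megakaryocytes that become polyploid. It was chosen for description after its values had been seen. Pf4-high cells held 35 Ect2 UMIs in RO-3066 (1.29 CPM, 0.897 to 1.79) and 27 in DMSO (0.761 CPM, 0.501 to 1.11), against 14.6 and 18.1 CPM in the other cells, or 0.0882-fold (0.0612 to 0.123) and 0.0421-fold (0.0277 to 0.0613). A UMI of Ect2 was found in 10.2% of RO-3066 and 4.09% of DMSO Pf4-high cells, deep as these were, against 39.0% and 30.5% of the others. At 10000 UMIs a cell the shares were 1.53% of RO-3066 and 0.218% of DMSO Pf4-high cells, against 16.1% and 15.4% of the others. Ect2 was the lowest of the 31 genes on the list of endomitosis and cytokinesis in both libraries.

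Over the whole list, Ect2 included, the median log2 ratio was -0.04 in RO-3066 and 0.10 in DMSO. In each library 3 of the 31 genes were 2-fold or more lower, against 3.85% of all genes in RO-3066 and 4.73% in DMSO. Kif23, the kinesin that carries centralspindlin and thereby Ect2 to the midzone, had 12 against 31.2 CPM in RO-3066 and 19.7 against 39.9 CPM in DMSO, and Cep55, which acts at abscission, had 9.82 against 22.0 CPM and 9.94 against 22.5 CPM. Myh10, the nonmuscle myosin IIB that Runx1 silences in megakaryocytes, had log2 ratios of -0.88 and -1.21. Aurkb, Incenp, Prc1 and Rhoa, of the same machinery, lay between -0.25 and 0.08 in RO-3066 and between -0.04 and 0.22 in DMSO, and the other exchange factor for RhoA on the list, Arhgef2, at -0.24 and 0.13. The 54 genes of G2 and M phase had a median log2 ratio of -0.25 in RO-3066 and 0.01 in DMSO, against -0.09 and -0.02 over all genes. Of these 54 genes 5 and 3 were 1.5-fold or more lower, against 10.6% and 10.2% of all genes. In each library 2 were as much higher, against 7.68% of all genes in RO-3066 and 7.97% in DMSO. Among single genes, Cdk1 had 285 against 246 CPM in RO-3066 and 245 against 222 CPM in DMSO, and the spindle gene Ckap2l was higher, at 324 against 116 CPM and 323 against 98 CPM.

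The differences were graded in the Pf4 share and did not begin at the limit. From cells under 0.1% Pf4 through 0.1 to 0.5%, 0.5 to 1%, 1 to 1.5%, 1.5 to 2% and at least 2%, Ppbp stood at 2.38, 4.27, 34.8, 109, 248 and 394 CPM in RO-3066, and at 1.36, 3.04, 7.75, 25.8, 58.1 and 213 CPM in DMSO. Vwf ran over the same ranges from 13.8 to 243 CPM in RO-3066 and from 8.25 to 186 CPM in DMSO, higher at each step. Gata1 reached 48.3 CPM in RO-3066 and 28.7 CPM in DMSO already at 0.1 to 0.5% and 64.0 and 62.5 CPM at 2% or more. Ect2 stood at 21.8, 7.1, 2.69, 1.30, 1.34 and 1.11 CPM in RO-3066 and at 25, 12.2, 2.57, 1.23, 0.688 and 0.188 CPM in DMSO. Cells of 0.5 to 1% Pf4, outside the class, were already low in Ect2. Kit at the highest range was 19.8 CPM in RO-3066 and 7.51 CPM in DMSO, against 141 and 96.2 CPM under 0.1%. Median depth over the same ranges ran from 27912 UMIs in RO-3066 and 22283 in DMSO under 0.1% Pf4 to 97163 and 57209 at 1.5 to 2%, with 74741 and 85715 at 2% or more, and its part in the gradient was not tested.

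**Figure D4:**
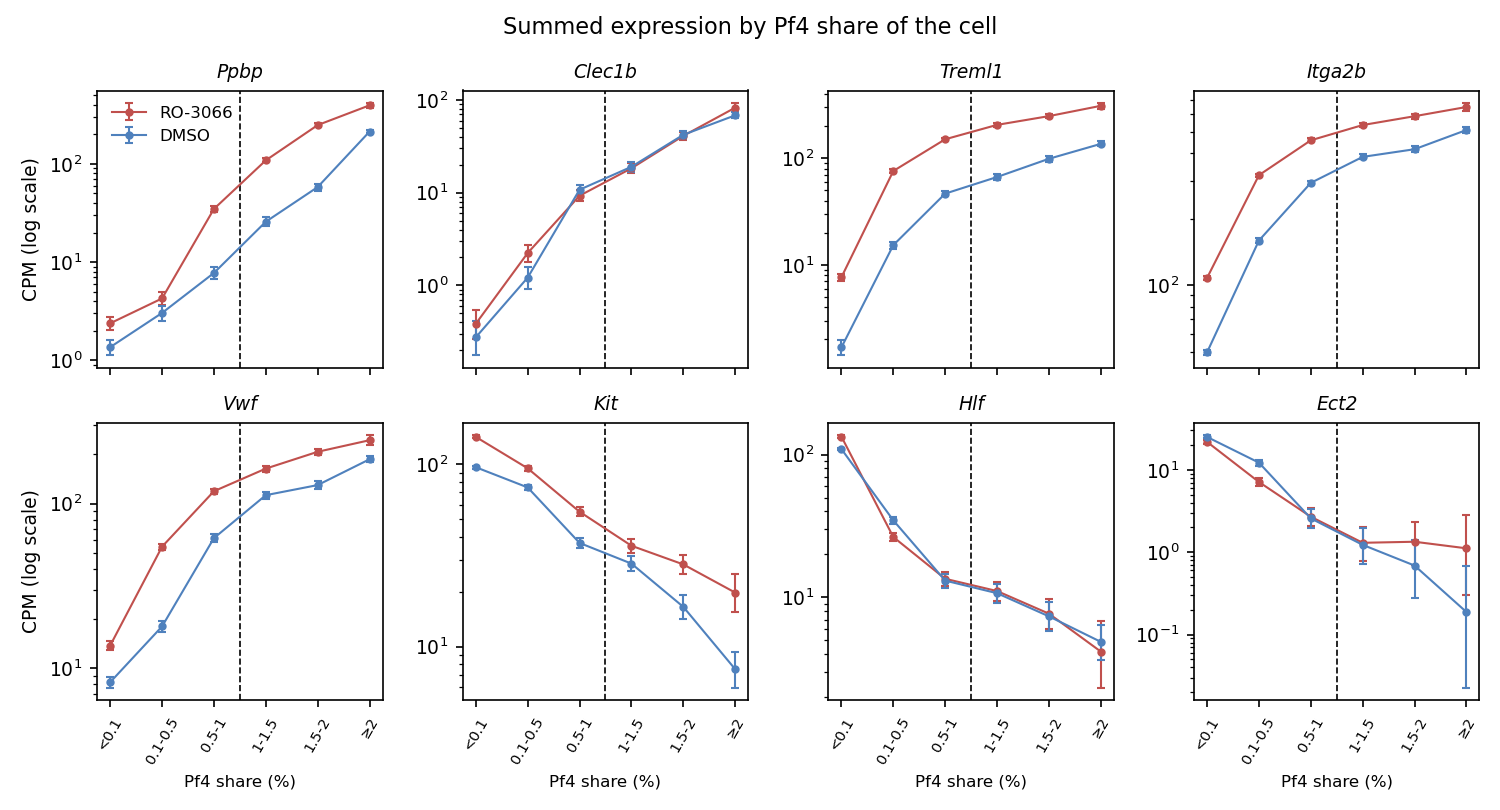
Summed expression (CPM, log scale) of 8 genes in 6 ranges of the Pf4 share of a cell (%), RO-3066 and DMSO; bars are exact 95% Poisson intervals and the dashed line is the limit of the class. Ppbp, Clec1b, Treml1, Itga2b and Vwf are higher, and Kit, Hlf and Ect2 lower, at high Pf4 share.

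Inside the class, correlations with Pf4 from cell to cell were at most 0.40 for the genes given here. Over the Pf4-high cells of a library, each thinned to 10000 UMIs, the Spearman correlation with Pf4 was 0.30 in RO-3066 (261 cells) and 0.40 in DMSO (459 cells) for Ppbp, 0.26 and 0.25 for Clec1b and 0.27 and 0.24 for Vwf. For Treml1 it was 0.03 in RO-3066 and 0.22 in DMSO. Such cells share a library and counts are sparse, with a mean of 0.72 to 1.77 Ppbp UMIs a cell. The class is also cut on Pf4, which narrows its range of Pf4. Both lower a correlation, so these values cannot show how closely the genes follow Pf4.

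Markers of other blood lineages did not all go one way. No Pf4-high cell of either library held a UMI of Mpo, the myeloperoxidase gene, of the carbonic anhydrase gene Car1, or of Alas2, an enzyme of heme synthesis. Mpo was rare outside the class too, in 0.509% of other RO-3066 and 0.864% of other DMSO cells. Its absence from a class of this size therefore says little. Car1 and Alas2 were not at 0 in the other cells. Il7r, Cd3e, Igkc and Siglech, of lymphoid and dendritic cells, were at 0 in the class and in the other cells alike. The 11 neutrophil and monocyte markers summed to 116 CPM in RO-3066 and 72.8 CPM in DMSO Pf4-high cells, against 147 and 163 CPM in the others. The 12 erythroid markers summed to 383 and 203 CPM, against 994 and 650 CPM, with 3 at 0 in RO-3066 and 4 in DMSO Pf4-high cells. On the longer erythroid list the median log2 ratio of Pf4-high over other cells was above 0, at 0.27 over 9 genes in RO-3066 and 0.47 over 8 in DMSO, with 4 genes 1.5-fold or more higher and 2 lower in each, against 7.68% and 10.6% of all genes in RO-3066 and 7.97% and 10.2% in DMSO. A UMI of Hbb-bt was found in 84.8% of RO-3066 and 43.1% of DMSO Pf4-high cells, against 80.5% and 55.5% of the others, and one of the neutrophil protease gene Prtn3 in 85.2% and 71.8%, against 79.3% and 81.4%. The 10 lymphoid markers summed to 102 and 38.6 CPM, against 87.7 and 54.4 CPM, and the 8 mast cell, basophil and eosinophil markers to 6.92 and 1.83 CPM, against 9.80 and 9.11 CPM. The part of free RNA in these levels was not tested.

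The second question was how Pf4-high cells of RO-3066 differ from those of DMSO. RO-3066 exceeded DMSO 2-fold or more in 133 (2.31%) of the 5769 genes that reached 20 CPM, and fell short of it by as much in 73 (1.27%). Among the other cells 27 of 5760 (0.469%) were higher and 34 (0.59%) lower. Of the genes past 2-fold inside the class, 14 higher ones (10.53%) and 26 lower ones (35.6%) were so among the other cells too, which is 51.9% and 76.5% of the lists of the other cells. Genes 2-fold higher inside the class lay within 1.5-fold among the others, on either side, for 36 of the 133. Cells of the class were deeper in RO-3066 than in DMSO by 1.48-fold at the median.

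Replication-dependent histone genes had the median farthest from 0 among the lists with 10 or more measured genes. Of 64 core and linker histone genes 44 reached 5 CPM in Pf4-high cells of either library, and 39 of them were lower in RO-3066 by 2-fold or more and 44 by 1.5-fold or more, with a median log2 ratio of -1.81. Among the other cells 17 of 48 were 2-fold lower and the median was -0.92. Over all genes of that level 1.36% inside the class and 0.493% among the others were 2-fold lower, and 4.09% and 1.25% 2-fold higher, with medians of -0.07 and 0.01. Hist1h1b, a linker histone gene, had 160 CPM in RO-3066 and 1074 CPM in DMSO Pf4-high cells, 0.149-fold (0.144 to 0.154), and 461 and 1512 CPM in the other cells, 0.305-fold. Hist1h2bc had 19.2 CPM in RO-3066 and 109 CPM in DMSO Pf4-high cells, and Hist1h4d 88.6 and 366 CPM. Copies of histone genes are nearly identical, so reads can be hard to assign to a single copy. What this does to the counts of a member or of the family was not tested. How well counting from 3′ ends captures histone transcripts was not tested.

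Per cell, the histone share of UMIs had a median of 0.0461% in RO-3066 and 0.468% in DMSO Pf4-high cells, and of 0.108% and 0.458% in the other cells. Most RO-3066 Pf4-high cells lay in a narrow low range, with quartiles of 0.0359 and 0.0605%, while DMSO Pf4-high cells spread widely, with quartiles of 0.122 and 0.683%. Cells with at least 0.2% histone UMIs, a level chosen after the values were seen, were 30 of 264 Pf4-high cells in RO-3066 (11.4%, 7.80 to 15.8) and 306 of 464 in DMSO (65.9%, 61.4 to 70.3). Among the other cells they were 35.0% in RO-3066 and 58.9% in DMSO. At 50000 to 120000 UMIs the shares were 10.53% and 66.5% of Pf4-high cells in RO-3066 and DMSO, and 19.0% and 71.7% of others. The lower level in Pf4-high than in other RO-3066 cells did not hold at 20000 to 60000 UMIs, where the log2 ratio was 0.11 for the median of the histone list and 0.17 for Hist1h1b, over 27 RO-3066 Pf4-high cells. Between 0.1 and 0.3%, near that level, lay 9 of the RO-3066 and 94 of the DMSO Pf4-high cells.

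**Figure D5:**
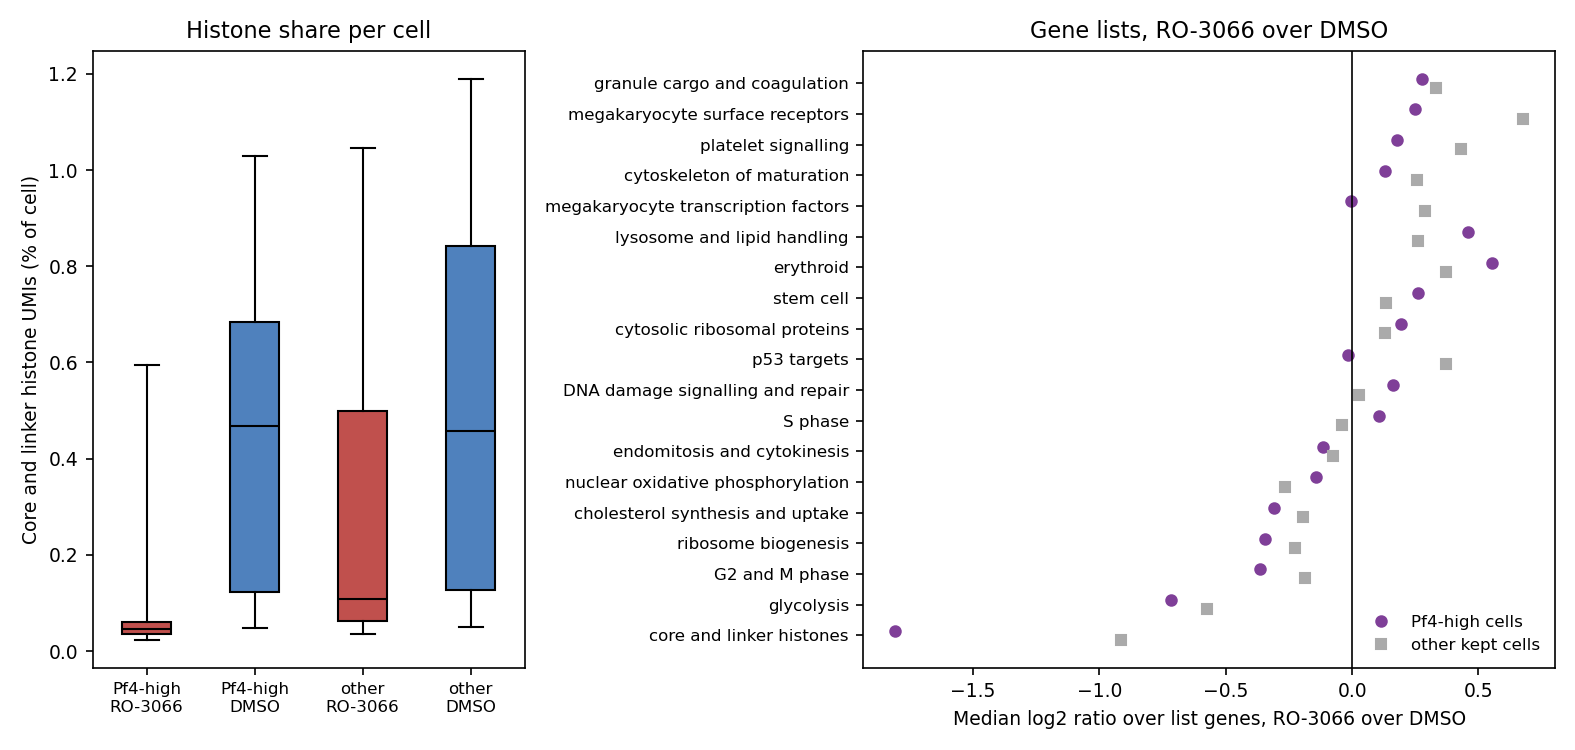
Left, core and linker histone UMIs (% of a cell's UMIs) in Pf4-high and other cells of RO-3066 and DMSO; boxes are quartiles with the median, whiskers the 5th and 95th percentiles. Right, median log2 ratio RO-3066 over DMSO of 19 gene lists, circles in Pf4-high cells and squares in other kept cells. Histones lie lowest, at -1.81 in Pf4-high and -0.92 in other cells.

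Other genes of the cell cycle differed less. Genes of G2 and M phase had a median log2 ratio of -0.36 over 53 genes inside the class and -0.19 over 54 among the other cells, with 17 and 3 genes 1.5-fold or more lower in RO-3066, against 7.06% and 1.99% of all genes of 5 CPM or more. Hmmr, a spindle protein, had 68.2 CPM in RO-3066 and 152 CPM in DMSO Pf4-high cells, Plk1, the mitotic kinase, 47.2 and 97.8 CPM, and Racgap1, the partner of Kif23 in centralspindlin, 27.9 and 59.1 CPM. Cdk1 itself was 1.16-fold higher in RO-3066 (285 against 245 CPM) and cyclin Ccnb1 was level (109 against 113 CPM). The proliferation marker Mki67 had 223 CPM in RO-3066 and 397 CPM in DMSO Pf4-high cells, a log2 ratio of -0.83, but the ratio was 0.45 among the 27 RO-3066 and 211 DMSO Pf4-high cells of 20000 to 60000 UMIs. S phase genes were near level as a list, with a median of 0.11 over 42 genes and log2 ratios from -1.67 to 1.07. In RO-3066 3 of them were 1.5-fold or more higher and 3 as much lower, against 10.1% and 7.06% of all genes. Rfc2 was higher in RO-3066 (240 against 113 CPM) and Ccne2 lower (39.0 against 75.2 CPM). The share of UMIs from G2 and M genes had a median of 0.748% in RO-3066 (quartiles 0.685 and 0.829) and 1.009% in DMSO (0.684 and 1.33), so RO-3066 Pf4-high cells lay in a narrower range here as well.

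Between the treatments, ratios of single megakaryocyte genes inside the class lay both above and below level. Treml1 had 233 CPM in RO-3066 and 96.8 CPM in DMSO Pf4-high cells, 2.41-fold higher (2.31 to 2.51), and Ppbp had 192 and 91.2 CPM, 2.11-fold higher (2.02 to 2.21). Itga2b was 1.32-fold higher (1.29 to 1.35), Serpine2 1.12-fold higher (1.07 to 1.17) and Clec1b 0.848-fold (0.780 to 0.922). List medians were 0.28 for granule cargo, 0.25 for receptors, 0.18 for signalling, 0.13 for the cytoskeleton and -0.01 for transcription factors, against -0.07 over all genes. Among the other cells the medians were 0.33, 0.68, 0.43, 0.26 and 0.29. Inside the class 10 of 31, 7 of 33, 6 of 33, 6 of 30 and 4 of 21 genes were 1.5-fold or more higher in RO-3066, in the same order of lists. As much lower were 2, 1, 0, 0 and 0. Over all genes of 5 CPM or more the shares were 10.1% higher and 7.06% lower. Of the 6 class markers, Ppbp and Treml1 were past 1.5-fold inside the class. Treml1 was 4.06-fold, Ppbp 2.87-fold, Serpine2 2.75-fold and Itga2b 1.91-fold higher in RO-3066 among the other cells. Clec1b and Pf4 itself differed by less than 1.5-fold there. F10, the clotting factor X gene, stood at 45.1 CPM in RO-3066 and 5.63 CPM in DMSO Pf4-high cells, 8.0-fold higher (6.89 to 9.34), the adhesive protein gene Thbs1 at 9.60 and 2.11 CPM, the growth factor gene Pdgfa at 10.3 and 1.27 CPM and the receptor gene Ly6g6f at 46.9 and 16 CPM. These 4 genes were chosen after their values were seen, as were Gp9, Angpt1, Vamp8, Srgn, Vipas39, Plcb2, Fli1, Runx1, Nfe2, Erg, Slamf1, Kif23, Cep55, Myh10, Aurkb, Incenp, Prc1, Rhoa, Arhgef2, Ckap2l, Itgb1, Vegfa, Phlda3 and Btg2. Lower in RO-3066 were the growth factor gene Vegfa, with a log2 ratio of -0.80, and the integrin chain gene Itgb1, with -0.61.

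Genes with at least 50 CPM in Pf4-high cells of either library were also ranked by RO-3066 over DMSO, with the same kinds of gene left out. The 12 highest were Hbb-bt, Apoe, Ltc4s, Slc6a13, Cited4, Clec4d, Rgs1, Cotl1, Zbtb20, Gsn, Serpinb1a and Mgmt. Hbb-bt, an adult beta globin gene, had 185 CPM in RO-3066 and 18.4 CPM in DMSO Pf4-high cells, and 505 and 244 CPM in the other cells. Its reads can be hard to assign among near-identical gene copies. Apoe, the lipid carrier apolipoprotein E, had 64.0 CPM in RO-3066 and 7.1 CPM in DMSO Pf4-high cells, 9.01-fold higher (7.89 to 10.3), and was 3.90-fold higher among the others. Cited4, a coactivator of transcription, had 58.8 CPM in RO-3066 and 10.4 CPM in DMSO Pf4-high cells, against 7.85 and 1.36 CPM in the others. Gsn and Cotl1, which encode the actin regulators gelsolin and coactosin-like protein, had 92.6 and 119 CPM in RO-3066 and 23.7 and 30.3 CPM in DMSO Pf4-high cells. Pdzk1ip1 had 175 CPM in RO-3066 and 61.7 CPM in DMSO.

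Genes lower in RO-3066 other than histones included those of glucose use. In the ranking of genes with at least 50 CPM, Plod2, a collagen lysyl hydroxylase, was the 1 gene among the 12 lowest that is not a histone. It had 13.5 CPM in RO-3066 and 67.3 CPM in DMSO Pf4-high cells, 0.201-fold (0.179 to 0.224). Bnip3, a mitophagy receptor, had 26.2 and 107 CPM, and the transferrin receptor gene Tfrc 20.5 and 66.7 CPM. Of 20 glycolysis genes 11 were 1.5-fold or more lower in RO-3066 inside the class and 10 among the other cells, against 7.06% and 1.99% of all genes, with medians of -0.72 and -0.57. Pdk1, the kinase that holds pyruvate back from mitochondria, had 23.5 CPM in RO-3066 and 57.3 CPM in DMSO Pf4-high cells, and Hk2, a hexokinase, 37.2 and 80.7 CPM. Relative to the other cells the class was higher in this list in both libraries, with medians of 0.35 in RO-3066 and 0.30 in DMSO, led by the lactate exporter gene Slc16a3 (64.3 against 17.6 CPM in RO-3066 and 127 against 50.7 CPM in DMSO).

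Targets of p53, the factor activated by DNA damage, had a median of -0.02 inside the class, with 4 of 21 genes 1.5-fold or more higher and 1 lower in RO-3066, against 10.1% and 7.06% of all genes of that level. Among the other cells the median was 0.37, with 9 of 23 higher and 0 lower, against 5.04% and 1.99%. Cdkn1a, the cyclin-dependent kinase inhibitor p21, had 55.5 CPM in RO-3066 and 33.9 CPM in DMSO Pf4-high cells, 1.64-fold higher (1.52 to 1.77), and 51.4 and 21.3 CPM in the other cells, 2.41-fold higher (2.31 to 2.51). Phlda3 had 10.4 and 3.38 CPM in the class and 18.0 and 3.05 CPM in the others, and Mdm2, the ligase that removes p53, 27.6 and 32.1 CPM in the class. Btg2, an antiproliferative target, had 77.6 CPM in RO-3066 and 77.0 CPM in DMSO Pf4-high cells against 30.1 and 16.6 CPM in the others. Genes of DNA damage signalling and repair had a median of 0.16 in the class and 0.03 among the others. Whether the 2 groups of cells differ in their p53 targets was not tested, and the median inside the class was 0.56 among cells of 20000 to 60000 UMIs.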

How the data were processed

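Transcripts of cultured mouse HSC were counted in 1 RO-3066 and 1 DMSO library. The authors deposited raw UMI counts per gene and barcode, made with Cell Ranger on mm10 per the submitters' processing notes, which give version 5.0.1, while the matrix header gives 7.1.0. From these counts, cells were filtered and the class was cut by its Pf4 share, counts were summed per library and class, scaled to CPM, and compared as log2 ratios of CPM plus 1. Nothing was clustered or tested, since each treatment had 1 library. Likely doublets were scored with simulated pairs and kept, and the procedure was checked on simulated data. The members, gene lists and comparisons were chosen with earlier results of these data known. Named genes are the class markers, the largest ratios of each list, the 12 highest and 12 lowest of each comparison and a few preset genes; others are stated as chosen after their values were seen. Alternatives changed the Pf4 limit, depth, filters, weights, scaling, pseudocount and minimum level. Coordinates are from GENCODE vM21, which held 32158 of 32285 identifiers, and promoters from RefSeq. Python 3.11.15, numpy 2.4.6, scipy 1.17.1, pandas 2.3.3 and scikit-learn 1.9.0 were used.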

Additional observations from a re-analysis of the deposited data

Results flagged for a closer look

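Ltc4s, the gene of leukotriene C4 synthase, stood on opposite sides in the 2 libraries: its log2 ratio of Pf4-high over other cells was 0.99 in RO-3066 (66.3 against 32.9 CPM) and -0.66 in DMSO (10.8 against 17.6 CPM). Ly6a, the stem cell antigen Sca-1, had a log2 ratio of RO-3066 over DMSO of 0.70 in Pf4-high cells (2.17 against 0.958 CPM) and -0.61 in the other cells (16.3 against 25.4 CPM). Its ratio in Pf4-high cells was -0.09 with a Pf4 limit of 2% and -0.34 among cells of 50000 to 120000 UMIs. Neither difference was tested.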

How the results depend on the processing

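No paired analysis was possible because each treatment had 1 library, and for the same reason no library could be left out. Pf4-high cells were 13.7% of RO-3066 and 15.8% of DMSO cells with a Pf4 limit of 0.5%, 1.08% and 1.84% with a limit of 2%, 1.21% and 5.26% among cells of 20000 to 60000 UMIs, and 15.2% and 42.4% among cells of 50000 to 120000 UMIs, a window added after seeing the data. Genes 2-fold higher in Pf4-high than in other RO-3066 cells numbered 337 at 20000 to 60000 UMIs, 119 at 50000 to 120000 UMIs, 371 with a minimum of 5 CPM, 60 with 100 CPM, 462 with none and 449 at 1.5-fold. Those 2-fold lower numbered 223 with a Pf4 limit of 2%, 233 with equal weight per cell, 234 and 59 in the 2 depth windows, 365, 23 and 573 with the 3 minimums, and 423 at 1.5-fold. In DMSO the higher genes numbered 44 at 50000 to 120000 UMIs, 367, 66 and 441 with the 3 minimums and 475 at 1.5-fold, and the lower ones 48, 437, 33, 739 and 410. For RO-3066 over DMSO inside the class, higher genes numbered 239 at 20000 to 60000 UMIs, 375, 21 and 599 with the 3 minimums and 412 at 1.5-fold, and lower ones 125, 18 and 142 with the minimums and 421 at 1.5-fold. The median histone share of RO-3066 Pf4-high cells was 0.05% after thinning. Over settings and comparisons, 2867 ratios of single genes lay outside the interval of the main result and 4108 inside it. For list medians the counts were 75 and 1028. A reversed sign was counted only where the main ratio was past 2-fold for a gene or 1.5-fold for a list. Smaller ratios that changed sign, as for Mki67, are not in that count. Among cells of 20000 to 60000 UMIs, which held 27 RO-3066 Pf4-high cells, the log2 ratio of Pf4-high over other RO-3066 cells turned positive for the histone list (0.11), Hist1h1b (0.17), Hist1h1e (0.29), Hist1h1c (0.19), Hist1h1d (0.0777), Hist1h2ae (0.14), Hist2h2bb (0.39), Hist2h2ac (0.25), Hist1h3e (0.0397) and Hist1h3c (0.20); the cause was not tested.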
